A study of Mus musculus with 12 samples.

Results

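The genes described here are 30 genes of the G2 phase and of mitosis, chosen by name with earlier results of these data known. They cover cyclins and Cdk1, the machinery that destroys cyclins, mitotic kinases, kinetochore, spindle and cytokinesis proteins, and chromosome proteins. Each of the 30 had 1 row in a table of 23586 genes, and the genes lie on 13 chromosomes. RNA was sequenced in bulk from cultured muscle stem cells of mice, the resident progenitors that rebuild skeletal muscle fibres, in 4 groups of 3 libraries. All cells carried the Pax3nLacZ-IRES-GFP allele, which reports the transcription factor gene Pax3 through GFP, and were sorted by that GFP. The groups were GFP-positive cells given pCR3-Six2, a plasmid with the mouse Six2 cDNA; GFP-positive cells given the empty pCR3 plasmid; GFP-negative cells given pCR3-Six2; and GFP-negative cells given the empty plasmid. Every group received 2 µg of plasmid by lipid transfection and grew in medium with 20% serum and 4 ng/mL basic FGF, and at least 50000 cells were taken per sample at low density. The age and sex of the mice, the time after transfection, the promoter of the plasmid and whether replicate libraries stem from separate mice or cultures are not given in the sources used here. P-values therefore measure the spread among these libraries alone, which may be technical.

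Cells enter mitosis when A- and B-type cyclins have activated the kinase CDK1. Polo and Aurora kinases then drive centrosome and spindle assembly, kinetochores attach chromosomes to spindle microtubules, and checkpoint kinases hold back the anaphase-promoting complex until attachment is complete. With its activator CDC20 and the ubiquitin-conjugating enzyme UBE2C, that complex marks cyclin B for destruction, after which the central spindle and a contractile ring divide the cell. Genes of this programme are transcribed late in the cycle. In resting cells the DREAM complex represses many of them through a promoter element named CHR, and NF-Y, bound at CCAAT boxes, together with B-MYB and FOXM1, activates them in G2. Proliferating myoblasts express the programme, and myoblasts that differentiate leave the cycle and shut it off. SIX2 is a homeodomain transcription factor of a family that binds MEF3 sites.

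The promoters of 8 of the genes are printed here because CHR and CCAAT letters are what the family is known to share. They are the 8 with the smallest p between SIX2 and control label in GFP-negative cells that had an entry in the RefSeq promoter table (build GRCm38.p6). Each line holds the 250 bases before the RefSeq start, 5′ to 3′ on the strand of the gene, and capitals mark CHR (TTTGAA) and CCAAT, or their reverse complements.
Cdc20: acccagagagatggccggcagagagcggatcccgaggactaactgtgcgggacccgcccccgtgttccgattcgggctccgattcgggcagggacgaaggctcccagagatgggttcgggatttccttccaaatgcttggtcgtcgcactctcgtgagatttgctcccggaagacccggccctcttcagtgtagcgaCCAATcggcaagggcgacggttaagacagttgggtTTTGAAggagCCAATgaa
Prc1: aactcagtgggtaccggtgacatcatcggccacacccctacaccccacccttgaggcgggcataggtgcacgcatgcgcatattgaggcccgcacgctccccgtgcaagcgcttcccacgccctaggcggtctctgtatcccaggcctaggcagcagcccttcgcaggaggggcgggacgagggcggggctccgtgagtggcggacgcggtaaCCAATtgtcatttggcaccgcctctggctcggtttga
Ccnb1: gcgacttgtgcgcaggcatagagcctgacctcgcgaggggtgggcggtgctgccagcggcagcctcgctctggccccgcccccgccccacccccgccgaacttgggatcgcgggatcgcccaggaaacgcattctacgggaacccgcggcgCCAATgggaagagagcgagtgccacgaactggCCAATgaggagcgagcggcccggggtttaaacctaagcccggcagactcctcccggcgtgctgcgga
Aurka: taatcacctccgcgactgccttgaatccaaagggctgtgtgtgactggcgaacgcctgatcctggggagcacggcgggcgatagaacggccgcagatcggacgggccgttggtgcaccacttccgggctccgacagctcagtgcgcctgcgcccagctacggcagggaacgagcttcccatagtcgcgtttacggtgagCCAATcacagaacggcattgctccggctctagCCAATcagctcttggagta
Top2a: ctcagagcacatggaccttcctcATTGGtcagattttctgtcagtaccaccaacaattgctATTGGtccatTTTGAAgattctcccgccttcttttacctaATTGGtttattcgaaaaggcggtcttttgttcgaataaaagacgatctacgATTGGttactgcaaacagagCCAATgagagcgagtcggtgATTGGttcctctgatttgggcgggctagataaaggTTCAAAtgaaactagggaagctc
Mki67: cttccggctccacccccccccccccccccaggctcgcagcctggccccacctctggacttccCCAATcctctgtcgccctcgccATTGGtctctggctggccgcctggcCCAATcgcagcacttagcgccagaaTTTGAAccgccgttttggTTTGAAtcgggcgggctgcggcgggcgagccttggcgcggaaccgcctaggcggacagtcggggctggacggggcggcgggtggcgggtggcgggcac
Cenpe: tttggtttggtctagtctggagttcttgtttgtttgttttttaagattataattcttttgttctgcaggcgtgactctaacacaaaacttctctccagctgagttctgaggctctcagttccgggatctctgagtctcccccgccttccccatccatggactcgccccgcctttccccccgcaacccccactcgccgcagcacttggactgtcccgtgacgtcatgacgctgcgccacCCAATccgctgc
Birc5: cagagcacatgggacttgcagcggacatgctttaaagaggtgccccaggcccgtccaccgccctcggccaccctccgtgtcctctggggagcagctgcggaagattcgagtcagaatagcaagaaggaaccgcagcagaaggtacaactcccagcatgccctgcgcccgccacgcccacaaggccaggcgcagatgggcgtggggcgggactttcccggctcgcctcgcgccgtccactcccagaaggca
The windows are chr4:118437344-118437593 on the minus strand for Cdc20, chr7:80294201-80294450 on the plus strand for Prc1, chr13:100786487-100786736 on the minus strand for Ccnb1 and chr2:172370571-172370820 on the minus strand for Aurka. Those of Top2a (chr11:99024190-99024439) and Mki67 (chr7:135716380-135716629) are on the minus strand, and those of Cenpe (chr3:135212313-135212562) and Birc5 (chr11:117848987-117849236) on the plus strand.

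Of the 30 genes, 26 had a promoter entry, and CCAAT on either strand was in 19 of these windows (73.1%), against 33.9% of 32841 RefSeq windows of the same length. At least 2 CCAAT boxes were in 13 of the 26 windows, against 10.1% of all. The CHR letters TTTGAA were in 8 windows (30.8%), against 16.0% of all, and CHR together with CCAAT in 7 (26.9%), against 5.55%. In the Cdc20 promoter a CHR begins 18 bases before the start with a CCAAT box on each side of it, and the Mki67 promoter holds CHRs beginning 116 and 98 bases before the start. The Top2a window has 6 CCAAT boxes, and the Birc5 window has neither motif. The E2F letters TTTCCCGC or TTTGGCGC were in 0 of the 26 windows, against 427 of all 32841, and the MEF3 letters TCAGGTT were in 3 (Bub1b, Kif23 and Kif2c; 11.5%), against 3.49%; both were searched on both strands. In Kif2c the MEF3 letters overlap the CHR letters. Each of the 26 genes gave 1 window, whereas the comparison took every RefSeq entry. Among the 13641 windows of genes that reached 10 normalized counts in 3 or more libraries, 35.3% held CCAAT and 12.8% at least 2 CCAAT boxes. In that set the shares were 10.9% for CHR, 4.17% for CHR with CCAAT, 2.27% for E2F and 2.82% for MEF3 letters. A match is a string of letters and not a shown binding site. Positions are counted from RefSeq starts, which differ from GENCODE gene starts for most of the printed genes. The windows of Ccnb1, Cdc20, Cenpe and Prc1 reach into the GENCODE gene, and those of Aurka, Mki67 and Birc5 end before it. In Ccnb1, Cdc20 and Cenpe the CCAAT box nearest the RefSeq start lies inside the GENCODE gene.

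Libraries held 12632428 to 15492340 reads in GFP-positive SIX2 cells and 31295165 to 47299937 in GFP-positive control cells, and 34048869 to 40182810 in GFP-negative SIX2 cells and 12438885 to 33151990 in GFP-negative control cells. Values are normalized counts, reads per gene divided by a size factor of the library, as the authors deposited them. Every one of the 30 genes passed the filter on low values, with between 60 and 6909 reads in a library. Six2 itself, the gene on the plasmid, had 28.6, 23.4 and 6.51 normalized counts in GFP-positive SIX2 libraries, against 5.35, 13.3 and 3.37 in GFP-positive control libraries. It had 22.8, 23.7 and 19.2 in GFP-negative SIX2 libraries, against 4.28, 15.9 and 24.4 in GFP-negative control libraries. The ranges overlap in both populations, so Six2 does not separate the plasmid labels, and SIX2 and control below are the labels of the libraries. Pax3, the gene of the sort, had 12.5, 3.897 and 14.7 in GFP-positive SIX2 libraries, against 19.3, 16.5 and 13.8 in GFP-negative SIX2 libraries. Under the control label it had 94.1, 62.5 and 59.9 in GFP-positive libraries, against 72.8, 68.2 and 73.2 in GFP-negative libraries, so it does not separate the GFP labels either. Pax3 does separate the plasmid labels, with every SIX2 library below every control library in both populations. The cause was not tested.

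The 7 markers of muscle stem cells and myoblasts summed to 57850 to 65499 normalized counts in GFP-positive SIX2, against 59813 to 61874 in GFP-positive control libraries. They summed to 50402 to 58745 in GFP-negative SIX2, against 58864 to 61307 in GFP-negative control libraries, with no overlap. By limma-trend Pax7, Myf5, Sdc4 and Vcam1 were called higher under the SIX2 label in both populations, and Cdh15 and Itga7 lower in GFP-negative cells (−0.29 and −0.32 on the log2 scale, adjusted p = 0.0359 and 0.0194). The fibroblast markers found in the table (4 of 6, with Dcn at 0 in 3 of the 4 groups) summed to 69.7 to 85.7 in GFP-positive SIX2, 22.9 to 74.2 in GFP-positive control, 73.8 to 84.2 in GFP-negative SIX2 and 38.5 to 53.6 in GFP-negative control libraries, and Ly6a among them was called higher under the SIX2 label in both populations (2.36 for GFP-positive and 1.75 for GFP-negative cells on the log2 scale, limma-trend adjusted p = 0.00157 and 0.00859). Endothelial markers (5 of 5) stayed at or under 33.7, Schwann markers (3 of 4) at or under 25.7, and haematopoietic markers (4 of 5, with Adgre1 at 0 in 3 of the 4 groups) at or under 111. Csf1r, one of the haematopoietic markers, was called higher under the SIX2 label in both populations (2.07 for GFP-positive and 2.44 for GFP-negative cells on the log2 scale, limma-trend adjusted p = 0.0413 and 0.0166), with 13.8 to 38.6 normalized counts in SIX2 libraries, against 1.66 to 11.5 in control libraries. The 4 smooth muscle and pericyte markers, some of which myoblasts also express, summed to 1108 to 1493 in GFP-positive SIX2, against 1769 to 1903 in GFP-positive control libraries. They summed to 979 to 1536 in GFP-negative SIX2, against 1497 to 1945 in GFP-negative control libraries. These sums are mostly Cspg4, which was called lower (−0.84 for GFP-positive and −0.78 for GFP-negative cells on the log2 scale, limma-trend adjusted p = 0.00448 and 0.00593), whereas Notch3 was called higher in both populations (1.51 and 1.41, adjusted p = 0.000522 and 0.000675) and Rgs5 in GFP-negative cells (1.69, adjusted p = 0.0267). The part of these markers in the results was not tested.

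Libraries of a group differed in much of the family at once, so counts out of the 30 genes are not 30 separate observations. GFP-positive control library 3 had the lowest value of its group in 29 of the 30 genes. GFP-negative control library 1, the shallowest with 12438885 reads, had the highest of its group in 25, GFP-positive SIX2 library 1 the highest in 22 and library 3 the lowest in 21, and GFP-negative SIX2 library 1 the lowest in 22. The 30 genes took 0.181%, 0.172% and 0.152% of normalized counts in the GFP-positive SIX2 libraries, against 0.0786%, 0.0832% and 0.0645% in the GFP-positive control libraries. In GFP-negative cells the shares were 0.196%, 0.206% and 0.214% under the SIX2 label, against 0.1004%, 0.0902% and 0.0838% under the control label. The SIX2 shares lay above the control shares in both populations.

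**Figure D1:**
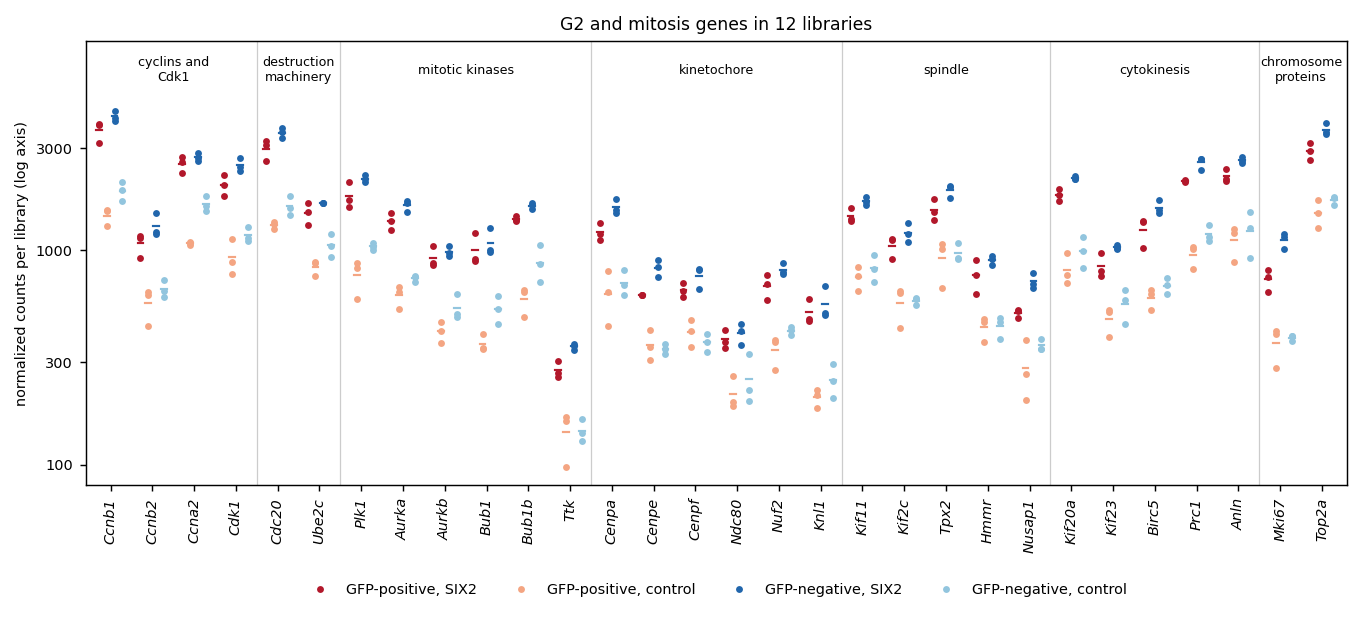
Normalized counts (log axis) of the 30 G2 and mitosis genes, ordered by role, with 1 point per library and a short bar at the group mean, for GFP-positive SIX2, GFP-positive control, GFP-negative SIX2 and GFP-negative control libraries. The points of both SIX2 groups lie above those of the control group of the same population in all 30 genes, and values run between 97.9 (Ttk in a GFP-positive control library) and 4485 (Ccnb1 in a GFP-negative SIX2 library).

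The comparison of plasmid labels sets SIX2 libraries against control libraries within each sorted population. All 30 genes were higher under the SIX2 label than under the control label in both populations, from the cyclins that start mitosis to the proteins that end it. In GFP-positive libraries the log2 difference on the log2(normalized count + 1) scale ran between 0.65 for Cenpf and 1.44 for Bub1, with a median of 1.00 (2.00-fold). In GFP-negative libraries it ran between 0.66 for Ube2c and 1.51 for Mki67, with a median of 1.04 (2.06-fold). Over all 14580 genes tested the medians were −0.01 and 0.00. Limma-trend passed 30 of 30 as higher in each population at an adjusted p under 0.05, where 12.1% of all genes tested were called higher in GFP-positive and 13.6% in GFP-negative cells. EdgeR, with 12.1% and 14.3% of all genes called higher, and DESeq2, with 13.3% and 15.1%, each passed the same 30 in both. Adjusted p lay between 9.17e-07 and 0.00515 in GFP-positive and between 4.14e-06 and 0.0091 in GFP-negative libraries. For all 30 genes the lowest SIX2 library was above the highest control library in both populations, as for 18.7% of all genes in GFP-positive and 22.8% in GFP-negative cells. In bulk RNA, more cells in G2 and mitosis and more of these RNAs per cell cannot be told apart.

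**Figure D2:**
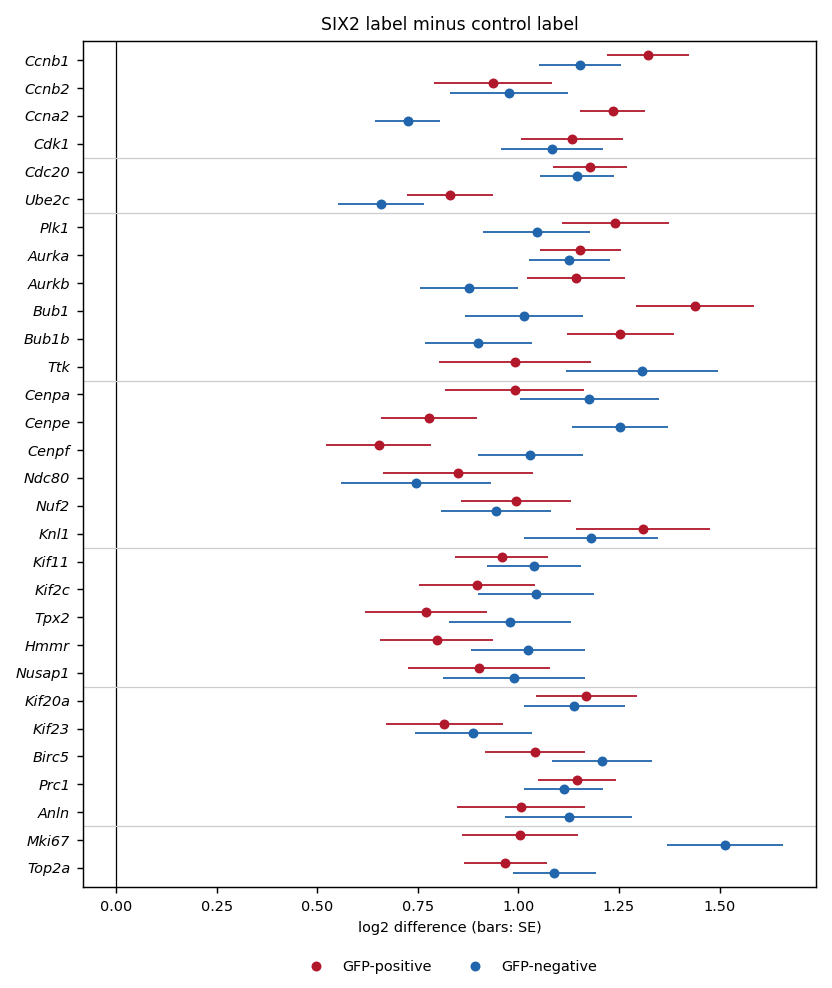
Log2 difference, SIX2 minus control label, of each of the 30 genes in GFP-positive (red) and GFP-negative (blue) libraries, with bars of 1 standard error; horizontal lines part the roles. Every point lies to the right of 0, between 0.65 (Cenpf, GFP-positive) and 1.51 (Mki67, GFP-negative).

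All 4 genes of the cyclins and Cdk1 rose in both populations. Ccnb1 (chr13:100778650-100786570, minus strand; gene positions are those of build GRCm38) encodes cyclin B1, the main partner of CDK1 at mitotic entry. Ccnb1 had 3835, 3893 and 3162 normalized counts in the GFP-positive SIX2 libraries, against 1535, 1519 and 1294 in the GFP-positive control libraries. The GFP-negative libraries of Ccnb1 held 3992, 4485 and 4156 under the SIX2 label, against 2082, 1918 and 1690.3 under the control label. The SIX2 libraries lay above the control libraries with no overlap in either population, with log2 differences (SIX2 minus control label) of 1.32 ± 0.10 (SE) for GFP-positive cells (adjusted p = 2.98e-06 by limma-trend) and 1.15 ± 0.10 for GFP-negative cells (adjusted p = 7.51e-06 by limma-trend). Ccna2 (chr3:36564865-36572150, minus strand) encodes cyclin A2, which acts in S phase and at mitotic entry. Counts of Ccna2 were 2724, 2584 and 2302 in GFP-positive SIX2 libraries and 1076, 1094 and 1056 in GFP-positive control libraries. They were 2619.6, 2833 and 2696 in GFP-negative SIX2 libraries and 1799, 1530.1 and 1609 in GFP-negative control libraries. The labels were apart in each population, with log2 differences (SIX2 minus control label) of 1.23 ± 0.08 (SE) for GFP-positive cells (adjusted p = 9.17e-07 by limma-trend) and 0.72 ± 0.08 for GFP-negative cells (adjusted p = 3.73e-05 by limma-trend). Cdk1, the mitotic kinase itself, and Ccnb2, a second B-type cyclin, had 1.13 and 0.94 for GFP-positive and 1.08 and 0.98 for GFP-negative cells (log2 differences). Of the Ccnb1 transcript sequence, 23.4% of 50-base words also occur in other genes, the pseudogenes Ccnb1-ps, Gm12856 and Gm8416, which themselves reached at most 13.6 normalized counts. Ccna2 exons overlap those of Exosc9 on the opposite strand; Exosc9 had log2 differences of 0.08 for GFP-positive and −0.13 for GFP-negative cells (adjusted p = 0.438 and 0.199 by limma-trend).

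Cdc20 and Ube2c, the family's genes of the machinery that destroys cyclins, were higher too. Ube2c had the family's smallest change in GFP-negative cells. Cdc20 (chr4:118432901-118437352, minus strand) encodes the activator of the anaphase-promoting complex, and its promoter is the CHR and CCAAT window printed first. In GFP-positive cells Cdc20 had 3224, 3100.2 and 2623 normalized counts under the SIX2 label, against 1326, 1350.5 and 1260.5 under the control label. GFP-negative cells had 3351, 3704 and 3577 under the SIX2 label, against 1793, 1567 and 1461 under the control label. Neither population had an overlap between plasmid labels, with log2 differences (SIX2 minus control label) of 1.18 ± 0.09 (SE) for GFP-positive cells (adjusted p = 2.98e-06 by limma-trend) and 1.14 ± 0.09 for GFP-negative cells (adjusted p = 4.14e-06 by limma-trend). Ube2c (chr2:164769898-164778822, plus strand) encodes the ubiquitin-conjugating enzyme of the complex. Counts of Ube2c were 1663, 1512 and 1311 in GFP-positive SIX2 libraries and 877, 882 and 758 in GFP-positive control libraries. They were 1670.0, 1659 and 1657 in GFP-negative SIX2 libraries and 1195, 1047 and 932 in GFP-negative control libraries. The SIX2 libraries again lay above, with log2 differences (SIX2 minus control label) of 0.83 ± 0.11 (SE) for GFP-positive cells (adjusted p = 0.000124 by limma-trend) and 0.66 ± 0.11 for GFP-negative cells (adjusted p = 0.000552 by limma-trend). Reads of both genes could come in part from partners on the opposite strand, since SMART-Seq2 libraries carry no strand information. Ube2c overlaps exons of Tnnc2, a troponin of fast muscle with mean normalized counts of 46394 in GFP-positive SIX2, 70823 in GFP-positive control, 42380 in GFP-negative SIX2 and 50768 in GFP-negative control libraries, which fell by 0.61 and 0.26 on the log2 scale (limma-trend adjusted p = 7.31e-05 and 0.0177). Cdc20 overlaps Elovl1, which had −0.02 in GFP-positive libraries (adjusted p = 0.827) and fell by 0.26 in GFP-negative libraries (adjusted p = 0.0077 by limma-trend).

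All 6 mitotic kinases rose. Plk1 (chr7:122159439-122169873, plus strand), the Polo kinase of centrosome maturation and mitotic entry, had 2086, 1713 and 1584 normalized counts in GFP-positive SIX2 libraries, against 830.0, 874 and 589.7 in GFP-positive control libraries. In GFP-negative libraries it had 2071, 2237 and 2147 under SIX2, against 1082, 1006 and 1038 under control, and no SIX2 library came as low as a control library. This gave log2 differences (SIX2 minus control label) of 1.24 ± 0.13 (SE) for GFP-positive cells (adjusted p = 2.95e-05 by limma-trend) and 1.05 ± 0.13 for GFP-negative cells (adjusted p = 9.41e-05 by limma-trend). Bub1b (chr2:118598211-118641591, plus strand) encodes BUBR1, a part of the checkpoint complex that inhibits CDC20. Counts of Bub1b were 1452, 1391 and 1366 in GFP-positive SIX2 libraries and 652, 636 and 489 in GFP-positive control libraries. They were 1564, 1622 and 1654 in GFP-negative SIX2 libraries and 1054, 859 and 712 in GFP-negative control libraries. Plasmid labels did not overlap, with log2 differences (SIX2 minus control label) of 1.25 ± 0.13 (SE) for GFP-positive cells (adjusted p = 2.62e-05 by limma-trend) and 0.90 ± 0.13 for GFP-negative cells (adjusted p = 0.00027 by limma-trend). Bub1 (chr2:127801122-127831865, minus strand), the checkpoint kinase that recruits BUBR1 and shugoshin to kinetochores, had the family's largest difference in GFP-positive cells. In GFP-positive cells Bub1 had 915, 1202 and 894 normalized counts under the SIX2 label, against 348, 407 and 347 under the control label. GFP-negative cells had 999.6, 977 and 1264 under the SIX2 label, against 615, 534 and 455 under the control label. Here too the labels were apart, with log2 differences (SIX2 minus control label) of 1.44 ± 0.15 (SE) for GFP-positive cells (adjusted p = 2.08e-05 by limma-trend) and 1.01 ± 0.15 for GFP-negative cells (adjusted p = 0.000237 by limma-trend). Aurka, the kinase of spindle poles, had 1.15 for GFP-positive and 1.13 for GFP-negative cells, Aurkb, the kinase of the chromosomal passenger complex, 1.14 and 0.88, and Ttk, the kinase at the top of the checkpoint, 0.99 and 1.31. Ttk had the lowest counts of the kinases, with means of 276 and 142 in the GFP-positive SIX2 and control groups, and the widest standard error of the role (0.19).

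The kinetochore genes held the family's smallest difference in GFP-positive cells. Cenpa (chr5:30666777-30674830, plus strand) encodes the histone H3 variant that marks centromeres. Counts of Cenpa were 1343, 1113 and 1195 in GFP-positive SIX2 libraries and 803, 639 and 443 in GFP-positive control libraries. They were 1499, 1537 and 1737 in GFP-negative SIX2 libraries and 812, 689.7 and 618 in GFP-negative control libraries. The labels were apart in both populations, with log2 differences (SIX2 minus control label) of 0.99 ± 0.17 (SE) for GFP-positive cells (adjusted p = 0.00111 by limma-trend) and 1.18 ± 0.17 for GFP-negative cells (adjusted p = 0.000259 by limma-trend). Nuf2 (chr1:169497934-169531464, minus strand) encodes a subunit of the NDC80 complex, which grips microtubules. Nuf2 had 693, 768 and 583 normalized counts in the GFP-positive SIX2 libraries, against 382, 372 and 275 in the GFP-positive control libraries. The GFP-negative libraries of Nuf2 held 789.7, 771 and 875 under the SIX2 label, against 439, 400.4 and 424 under the control label. No library of one label reached into the range of the other, with log2 differences (SIX2 minus control label) of 0.99 ± 0.14 (SE) for GFP-positive cells (adjusted p = 0.000201 by limma-trend) and 0.94 ± 0.14 for GFP-negative cells (adjusted p = 0.000236 by limma-trend). Cenpe (chr3:135212537-135273611, plus strand) encodes a kinesin that carries chromosomes to the metaphase plate. Counts of Cenpe were 616, 616 and 615 in GFP-positive SIX2 libraries and 425, 354 and 307 in GFP-positive control libraries. They were 751, 899 and 832 in GFP-negative SIX2 libraries and 328, 364 and 347 in GFP-negative control libraries. The 3 GFP-positive SIX2 values nearly coincided, and the differences between labels were 0.78 ± 0.12 (SE) for GFP-positive and 1.25 ± 0.12 for GFP-negative cells (adjusted p = 0.000457 and 1.18e-05 by limma-trend).

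Cenpf (chr1:189640606-189688086, minus strand) encodes a large protein that binds the outer kinetochore in mitosis. Cenpf had 700.3, 649 and 606 normalized counts in the GFP-positive SIX2 libraries, against 474, 422 and 354 in the GFP-positive control libraries. The GFP-negative libraries of Cenpf held 662, 814 and 806 under the SIX2 label, against 375, 334 and 406 under the control label. It had the smallest of the 30 differences in GFP-positive libraries, 0.65 ± 0.13 (SE; limma-trend adjusted p = 0.00276), and 1.03 ± 0.13 in GFP-negative libraries (adjusted p = 8.75e-05). Knl1, the scaffold on which checkpoint proteins gather, had 1.31 for GFP-positive and 1.18 for GFP-negative cells. Ndc80, the namesake subunit of the microtubule-gripping complex, had 0.85 and 0.74, with the largest adjusted p of the family in both populations (0.00515 and 0.0091, limma-trend).

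Spindle genes moved within a narrow band, 0.77 to 0.96 in GFP-positive and 0.98 to 1.04 in GFP-negative libraries (log2 differences). Tpx2 (chr2:152847964-152895321, plus strand) encodes the activator that brings Aurora A to spindle microtubules. Counts of Tpx2 were 1733, 1504 and 1382 in GFP-positive SIX2 libraries and 1009.7, 1072 and 669.9 in GFP-positive control libraries. They were 1757, 1994 and 1971 in GFP-negative SIX2 libraries and 1084, 917 and 906 in GFP-negative control libraries. GFP-positive control library 3 was far below its 2 companions, and no SIX2 library fell to the control range, with log2 differences (SIX2 minus control label) of 0.77 ± 0.15 (SE) for GFP-positive cells (adjusted p = 0.00253 by limma-trend) and 0.98 ± 0.15 for GFP-negative cells (adjusted p = 0.000382 by limma-trend). Kif11 (chr19:37376403-37421859, plus strand) encodes the kinesin that pushes spindle poles apart. In GFP-positive cells Kif11 had 1577, 1401 and 1368 normalized counts under the SIX2 label, against 757, 839.6 and 647 under the control label. GFP-negative cells had 1621, 1767 and 1679 under the SIX2 label, against 949, 818 and 713 under the control label. Its labels were separate in both populations, with log2 differences (SIX2 minus control label) of 0.96 ± 0.12 (SE) for GFP-positive cells (adjusted p = 6.98e-05 by limma-trend) and 1.04 ± 0.12 for GFP-negative cells (adjusted p = 3.82e-05 by limma-trend). Kif2c, a kinesin that takes microtubules apart at kinetochores, had 0.90 and 1.04, Hmmr, a spindle pole protein, 0.80 and 1.02, and Nusap1, a microtubule bundler, 0.90 and 0.99 in GFP-positive and GFP-negative libraries. Nusap1 overlaps Oip5, a centromere protein gene on the opposite strand, which was itself higher (1.27 and 0.98, limma-trend adjusted p = 0.00184 and 0.00748).

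Genes of cytokinesis, the division of the cell body, rose as a group as well. Anln (chr9:22332012-22389188, minus strand) encodes anillin, which ties actin, myosin and septins together in the contractile ring. Anln had 2115, 2385 and 2149 normalized counts in the GFP-positive SIX2 libraries, against 1258, 1199.9 and 885 in the GFP-positive control libraries. The GFP-negative libraries of Anln held 2722, 2559.6 and 2606 under the SIX2 label, against 1510.1, 1265 and 916 under the control label. GFP-negative control library 1 had the highest control value, and it stayed below all SIX2 libraries, with log2 differences (SIX2 minus control label) of 1.01 ± 0.16 (SE) for GFP-positive cells (adjusted p = 0.000526 by limma-trend) and 1.12 ± 0.16 for GFP-negative cells (adjusted p = 0.000191 by limma-trend). Prc1 (chr7:80294450-80316259, plus strand) encodes the protein that bundles antiparallel microtubules of the central spindle. Counts of Prc1 were 2119, 2081 and 2110.2 in GFP-positive SIX2 libraries and 1036, 1011 and 818 in GFP-positive control libraries. They were 2371, 2671 and 2668 in GFP-negative SIX2 libraries and 1311, 1154 and 1105 in GFP-negative control libraries. The GFP-positive SIX2 values were close together, and the plasmid labels did not overlap in either population. Log2 differences (SIX2 minus control label) were 1.15 ± 0.10 (SE) for GFP-positive cells (adjusted p = 5.12e-06 by limma-trend) and 1.11 ± 0.10 for GFP-negative cells (adjusted p = 6.98e-06 by limma-trend). Kif20a and Kif23, kinesins of the central spindle, had 1.17 and 0.82 for GFP-positive and 1.14 and 0.89 for GFP-negative cells. Birc5, survivin, which places the chromosomal passenger complex, had 1.04 and 1.21 and its promoter window holds neither CHR nor CCAAT letters. Kif20a shares 25.2% of its 50-base words with Cdc23, which overlaps it on the opposite strand and had log2 differences of 0.22 in both populations (limma-trend adjusted p = 0.0409 for GFP-positive and 0.0298 for GFP-negative cells). Prc1 overlaps Rccd1, with at most 138 normalized counts, and Plk1 overlaps Gm44985, with at most 2.41.

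The chromosome proteins are the markers most used to count cycling cells. Top2a (chr11:98992943-99024189, minus strand) encodes topoisomerase II alpha, which untangles sister chromatids, and its promoter window has the most CCAAT boxes of those printed. In GFP-positive cells Top2a had 3174, 2917 and 2628 normalized counts under the SIX2 label, against 1488, 1716 and 1275 under the control label. GFP-negative cells had 3472, 3563 and 3923 under the SIX2 label, against 1774, 1619.7 and 1753 under the control label. There was no overlap between labels, with log2 differences (SIX2 minus control label) of 0.97 ± 0.10 (SE) for GFP-positive cells (adjusted p = 2.73e-05 by limma-trend) and 1.09 ± 0.10 for GFP-negative cells (adjusted p = 1.11e-05 by limma-trend). Mki67 (chr7:135689784-135716361, minus strand) encodes Ki-67, which coats mitotic chromosomes. Counts of Mki67 were 638, 813 and 747 in GFP-positive SIX2 libraries and 419, 405 and 282 in GFP-positive control libraries. They were 1191, 1012 and 1157 in GFP-negative SIX2 libraries and 396, 377 and 399.6 in GFP-negative control libraries. It had the family's largest difference in GFP-negative cells, with log2 differences (SIX2 minus control label) of 1.00 ± 0.14 (SE) for GFP-positive cells (adjusted p = 0.000276 by limma-trend) and 1.51 ± 0.14 for GFP-negative cells (adjusted p = 1.13e-05 by limma-trend). GFP-positive SIX2 libraries of Mki67 thus stood between the GFP-negative SIX2 libraries above and both control groups below.

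Per kilobase of exon (all annotated exons of a gene joined), mean levels over the 12 libraries differed widely within the family. Cdc20 was highest with 1264 normalized counts per kilobase, ahead of Ccnb1 (663), Plk1 (654) and Ccnb2 (588). Cenpf (35.6), Knl1 (44.7), Ttk (46.7) and Ndc80 (48.5) were lowest. Differences between plasmid labels varied less, with an SD across the 30 genes of 0.19 for GFP-positive and 0.17 for GFP-negative cells on the log2 scale, against standard errors of 0.08 to 0.19 for single genes. Changes of 2-fold or more were found for 15 genes for GFP-positive and 20 for GFP-negative cells, against 5.95% and 6.32% of all genes tested.

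Genes of other phases were read in the same fit. Of 15 S phase genes, 14 were called higher in GFP-positive libraries, against 12.1% of all genes (limma-trend). In GFP-negative libraries 13 were called higher and 1 lower, against 13.6% and 14.3% of all genes. Medians were 0.93 for GFP-positive and 0.71 for GFP-negative cells on the log2 scale. Rrm1 was the 1 gene below 0, with −0.09 and −0.21. Tyms, the thymidylate synthase, had 0.93 and 0.99. Of 9 G1 cyclins and CDK inhibitors, 6 were called higher for GFP-positive and 5 for GFP-negative cells, against 12.1% and 13.6% of all genes, among them Ccnd2, a D-type cyclin (1.38 for GFP-positive and 1.78 for GFP-negative cells, limma-trend adjusted p = 7.42e-05 and 1.11e-05), and Ccne1, an E-type cyclin (1.09 and 0.90, adjusted p = 1.53e-05 and 6.13e-05). Of the CDK inhibitors in that list, Cdkn2c was called higher in GFP-positive cells (0.64, limma-trend adjusted p = 0.0105) and Cdkn1b in GFP-negative cells (0.48, adjusted p = 0.012). Cdkn1a, the p21 gene, had −0.22 and 0.02 (adjusted p = 0.0536 and 0.894), and Cdkn1c had the lowest values of the list, −0.29 and −1.32 (adjusted p = 0.74 and 0.0736). Of 10 genes of myogenic differentiation, 10 were called lower for GFP-positive and 9 for GFP-negative cells, against 11.2% and 14.3% of all genes, with medians of −0.57 in each. SIX2 libraries stood above the mean of all 12 libraries for G2 and mitosis genes and below it for differentiation genes. Control libraries stood the other way, so these signs follow the plasmid label. The medians over genes were 0.48, 0.39 and 0.28 for G2 and mitosis and −0.18, −0.23 and −0.05 for differentiation in GFP-positive SIX2 libraries. In GFP-positive control libraries they were −0.54, −0.50 and −0.91 against 0.47, 0.34 and 0.32. Within a group the 2 sets were not always opposite. Against the mean of its group, GFP-positive control library 3 had −0.22 for G2 and mitosis and −0.04 for differentiation. Library 1 of that group had 0.12 and 0.06, whereas GFP-positive SIX2 library 3 had −0.13 and 0.07.

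**Figure D3:**
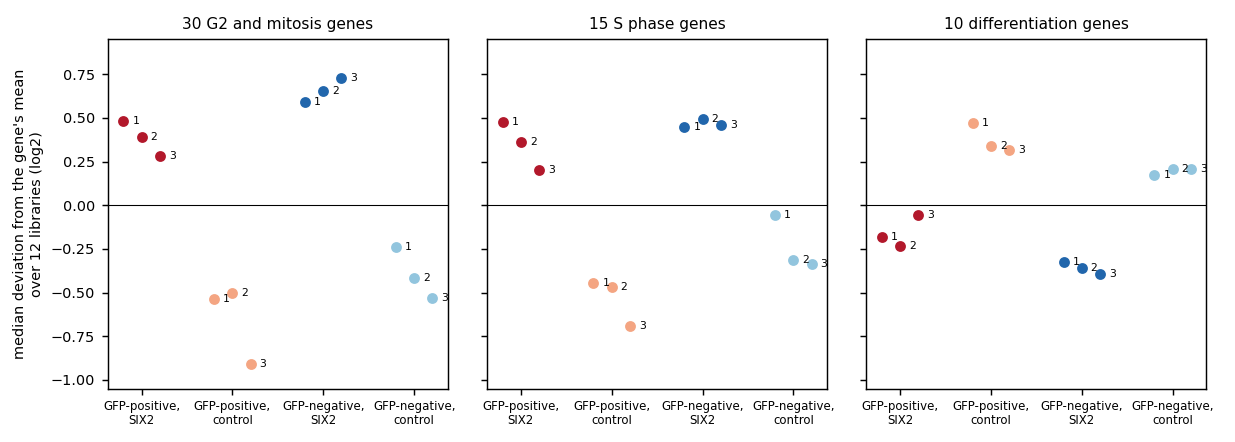
Median over genes of the deviation of each library from the gene's mean over 12 libraries (log2), for the 30 G2 and mitosis genes, 15 S phase genes and 10 differentiation genes; points are libraries, numbered by replicate. In the left panel SIX2 libraries lie between 0.28 and 0.73 and control libraries between −0.91 and −0.24, and in the right panel the SIX2 libraries lie below 0 and the control libraries above.

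Between GFP labels few of the 30 genes passed the test. Among control libraries Ccna2 and Bub1b were lower in GFP-positive cells than in their GFP-negative counterparts, and the other 28 genes did not pass the test. Ccna2 had 1076, 1094 and 1056 normalized counts in GFP-positive control libraries, against 1799, 1530.1 and 1609 in GFP-negative control libraries. The ranges did not overlap, with a log2 difference (GFP-positive minus GFP-negative) of −0.61 ± 0.08 (SE; limma-trend adjusted p = 0.0021). Bub1b had 652, 636 and 489 in GFP-positive and 1054, 859 and 712 in GFP-negative control libraries, −0.55 ± 0.13 (SE; limma-trend adjusted p = 0.0389). These 2 of 30 stand beside 2.56% of all genes called lower in that comparison. The call of Ccna2 held under all 26 other settings tried, whereas that of Bub1b ended under 12 of them, with adjusted p up to 0.175 without GFP-negative control library 1, and 0.0737 without GFP-positive control library 3. Differences were below 0 for 28 of the 30 genes (50.3% of all genes tested), with a median of −0.24, and 11 genes had no overlap in the lower direction (14.1% of all). Cenpf (0.16) and Cenpe (0.05) were the 2 above 0. DESeq2 called 8 lower, Ccna2, Bub1b, Ccnb1, Bub1, Plk1, Prc1, Cdc20 and Ube2c, where it called 4.62% of all genes lower, and edgeR called the same 2 as limma-trend, with 2.16% of all genes. By limma-trend 14 of the 30 had an unadjusted p under 0.05, against 19.8% of all genes. The comparison shares its libraries with the plasmid-label comparisons. Of the S phase genes 4 of 15 were lower in GFP-positive control libraries, and of the genes of mitotic entry 2 of 13, among them Mybl2 (−1.63, adjusted p = 0.0426 by limma-trend).

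Among SIX2 libraries limma-trend and edgeR called 0 of the 30 genes between GFP labels (10 had an unadjusted p under 0.05), where each called 0.178% of all genes lower and 13.0% of all genes had an unadjusted p under 0.05. All 30 differences were below 0, against 52.8% of all genes tested, with a median of −0.26. Groups did not overlap for 20 of the 30 (8.16% of all in that direction). Because the genes of a library moved largely together, these counts are not separate observations for each gene. Mki67 had 638, 813 and 747 normalized counts in GFP-positive SIX2 libraries, against 1191, 1012 and 1157 in GFP-negative SIX2 libraries, which is −0.62 ± 0.14 on the log2 scale (SE; limma-trend adjusted p = 0.0989; 0.0463 without GFP-positive control library 3). DESeq2 called Mki67 and Cenpe lower (adjusted p = 0.00577 and 0.0472), with 0.713% of all genes. The median over the family was −0.32 to −0.16 among control libraries and −0.31 to −0.18 among SIX2 libraries when each library was left out in turn.

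**Figure D4:**
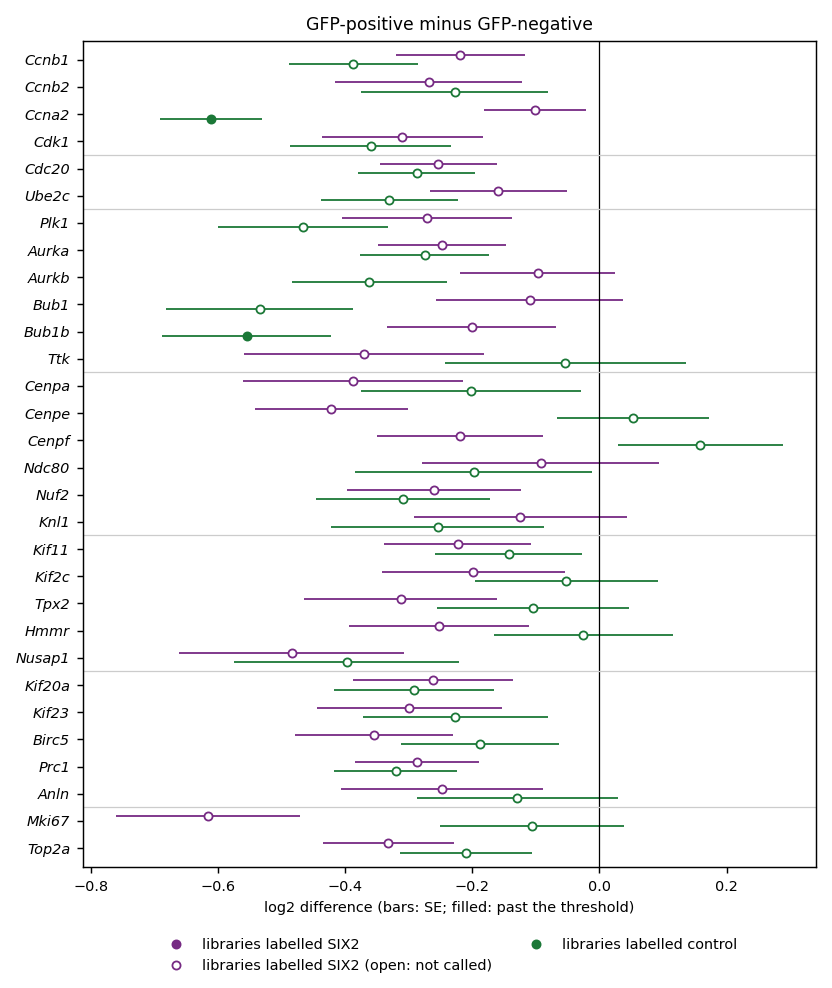
Log2 difference, GFP-positive minus GFP-negative, of the 30 genes among SIX2 libraries (purple) and control libraries (green), with bars of 1 standard error; filled points passed the test. All SIX2 points and 28 control points lie left of 0, and Ccna2 (−0.61) and Bub1b (−0.55) among control libraries are the filled ones.

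Whether the gap between plasmid labels was unlike in the 2 populations was tested by the interaction, the GFP-positive difference minus the GFP-negative one. Limma-trend and edgeR called 0 of the 30 genes, as of all genes (0.00%), and 3 of the 30 had an unadjusted p under 0.05, against 16.7% of all genes. Those were Ccna2, with 0.51 ± 0.11 (SE; limma-trend adjusted p = 0.0988), Cenpe, with −0.47 ± 0.17 (adjusted p = 0.19), and Mki67, with −0.51 ± 0.20 (adjusted p = 0.233). A positive sign means the wider gap between plasmid labels was in GFP-positive cells, and 15 genes had each sign, with a median of −0.01. DESeq2 called 1 gene, Ccna2 (adjusted p = 0.00448), where it called 3.83% of all genes, and limma-trend called Ccna2 when GFP-positive SIX2 library 3 was left out (adjusted p = 0.0484). By role, the 6 mitotic kinases had a median interaction of 0.23, with Ttk (−0.32) as the exception in sign, and all 5 spindle genes were below 0 with a median of −0.15; these are descriptions without a test.

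Genes that work with the family were taken from lists chosen by function, with earlier results of these data known. Their counts stand beside 12.1% of all genes called higher and 11.2% lower in GFP-positive cells, and 13.6% and 14.3% in GFP-negative cells. Of 27 other spindle and cytokinesis genes, 24 were called higher under the SIX2 label for GFP-positive and 26 for GFP-negative cells (limma-trend), with medians of 1.00 and 1.06. The largest were those of Psrc1, a spindle protein (1.67 and 1.72, adjusted p = 2.83e-05 and 2.23e-05), and Kif22, a chromosome-arm kinesin, had 1.23 and 1.14. Of 29 other kinetochore, centromere and checkpoint genes, 21 and 27 were called higher, with medians of 0.90 and 0.84. Spc24, a subunit of the NDC80 complex beside Ndc80 and Nuf2, had 1.07 for GFP-positive and 1.17 for GFP-negative cells (adjusted p = 2.81e-06 and 1.76e-06), and its partner Spc25 had 1.08 and 1.07. Of 8 condensin subunits, which compact mitotic chromosomes, 7 were called higher in each population, among them Ncaph (0.90 and 0.99), and those that did not pass were Smc4 in GFP-positive cells (0.35, adjusted p = 0.0738 by limma-trend) and Ncaph2 in GFP-negative cells (0.04).

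Of 13 genes of mitotic entry and its transcription, 9 were called higher for GFP-positive and 7 for GFP-negative cells, with medians of 1.04 and 0.56. They included Gtse1, a microtubule-bound regulator of G2 (1.06 and 1.16), Bora, the activator of Aurora A towards PLK1 (0.86 and 1.18), and Fbxo5, an inhibitor of the anaphase-promoting complex (1.04 and 1.08). Named after their values were seen, the transcription factor genes Foxm1 and Mybl2, which encodes B-MYB, had 1.22 and 1.32 in GFP-positive libraries (limma-trend adjusted p = 0.00259 and 0.0288) and 0.69 and 0.28 in GFP-negative libraries (adjusted p = 0.0469 and 0.655). Of 13 cohesin, separase and related genes, 5 were called higher for GFP-positive and 7 for GFP-negative cells, against 12.1% and 13.6% of all genes, with medians of 0.01 and 0.30, led by Sgo1, the shugoshin that protects centromeric cohesion (1.40 and 1.25), with Wapl, a cohesin release factor, at −0.24 (adjusted p = 0.0935) and 0.44 (adjusted p = 0.00436).

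The complexes that act on these genes or their products had medians between 0.01 and 0.11 (log2 differences), against −0.01 and 0.00 over all genes. Of 14 core subunits of the anaphase-promoting complex, the partner of CDC20 and UBE2C, 3 were called higher in GFP-positive libraries, and 4 higher and 1 lower in GFP-negative libraries (limma-trend), against 12.1% and 13.6% of all genes called higher, with medians of 0.01 and 0.11. Anapc1, its largest scaffold, had 0.34 and 0.45 (adjusted p = 0.0254 and 0.0044), and Anapc7 had −0.05 and −0.39 (adjusted p = 0.698 and 0.00309). Of 14 subunits of DREAM, its MuvB core and NF-Y, which bind CHR and CCAAT sites, 1 was called lower in GFP-positive libraries, and 2 higher and 2 lower in GFP-negative libraries, with medians of 0.02 and 0.07. With 11.2% of all genes called lower in GFP-positive cells, and 13.6% higher and 14.3% lower in GFP-negative cells, these counts are near the share over all genes. E2f4, a DREAM subunit, had −0.19 and −0.80 (adjusted p = 0.291 and 0.000336), Lin37 −0.39 and −0.42 (adjusted p = 0.0224 and 0.0141), and Rbl1, which encodes p107, 0.34 and 0.57 (adjusted p = 0.121 and 0.011).

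**Figure D5:**
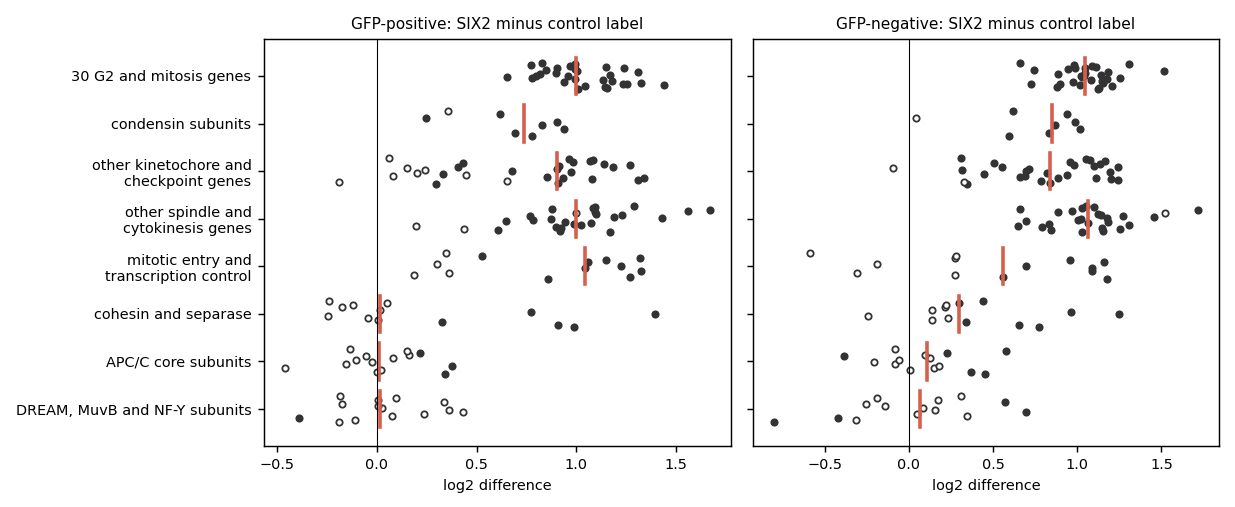
Log2 difference, SIX2 minus control label, in GFP-positive (left) and GFP-negative libraries (right), for the 30 genes and for 7 other lists; each point is a gene, filled where it passed the test, and the red bar is the median of the list. The medians of the 30 genes are 1.00 and 1.04, and those of the subunits of the anaphase-promoting complex are 0.01 and 0.11.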

How the data were processed

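RNA of 12 libraries was copied by SMART-Seq2, fragmented with Tn5 and amplified, per the labels' protocols, which do not mark strand; the series' design text names a DNBSEQ-T7 sequencer. STAR 2.7.11a, RSEM 1.3.3, FastQC 0.12.1, MultiQC 1.19, DESeq2 1.42.0 were used with build GRCm38, per the submitters' processing notes. The deposited values are normalized counts per gene, a signal scaled by the authors with 1 size factor per library. Dividing by the smallest step of a library gave whole reads for 100% of values (within 1e-04), and median-of-ratios factors recomputed from these matched the deposited scaling.

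With limma 3.58.1 under R 4.3.3, limma-trend was fitted to log2(normalized count + 1) of all 12 libraries and 4 group means. Tests were two-sided, with Benjamini-Hochberg adjustment over the 14580 genes that reached 10 normalized counts in 3 or more libraries, and a threshold of 0.05. Folds on this scale understate changes of low genes. Groups come from sample titles. EdgeR 4.0.16 (quasi-likelihood) and DESeq2 1.42.0 were run on the recovered reads; other settings were pseudocounts, filters, scalings, a replicate block, library weights, thinning, GC trend removal and leaving out each library. The fit was also run on simulated reads with known changes. Those reads were drawn for each gene independently, so shifts shared by many genes of a library were not simulated. Replicate libraries differed by more than sampling noise in each group (chi-square per degree of freedom 7.18 to 45.3).

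The 30 genes and the other lists were chosen with earlier results of these data known. Values in every library are given for the 2 genes of each role with the highest mean, the largest and smallest change of each plasmid-label comparison, genes called between GFP labels and the 3 smallest interaction p; of other lists, the 3 genes with the smallest p in GFP-negative cells are candidates for naming, others being named after their values were seen. Positions and overlaps are from GENCODE release M21, and promoter sequences are from RefSeq. For 5 of the 8 printed promoters, the 30 bases after the RefSeq start occur somewhere in a GENCODE transcript of the same gene. That check does not show that transcription starts there. Figures were drawn with matplotlib 3.10.9.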

Additional observations from a re-analysis of the deposited data

How the results depend on the processing

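The 30 calls of each plasmid-label comparison kept their direction and their side of the threshold under all 26 other settings, which is 780 gene-by-setting pairs per comparison. These pairs are not separate checks, because the genes of a library moved largely together. Leaving out a library outside the compared groups also cannot change a log2 difference. Their median log2 difference stayed between 0.86 and 1.11 in GFP-positive and between 1.01 and 1.12 in GFP-negative libraries when each library was left out. Between GFP labels among control libraries, the 2 genes called lower became 1 with no filter, with quantile normalization and with only the compared libraries, 4 after thinning to the smallest library and after removal of the GC trend, 8 with library weights and 8 with DESeq2, and 1 to 3 when each library was left out. Ccna2 was among the called genes every time. Among SIX2 libraries the count of 0 became 2 with DESeq2, and 0 to 1 when each library was left out. For the interaction it became 1 with DESeq2, and 0 to 1 when each library was left out. The cause was not tested.

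Deviations of same-numbered libraries from their group means were correlated over genes, and of 18 pairs 0 had a correlation over 0.1 (−0.20 to 0.05). Pairs with different numbers were not compared, and 3 libraries a group are few. Whether the numbers pair the libraries therefore stays unknown. With the replicate number as a block, 30 genes were called higher under the SIX2 label in each population, 3 lower between GFP labels among control libraries, 0 among SIX2 libraries and 0 for the interaction. No alternative scaling moved the median of all genes by over 0.1 (log2). Each of them brings most genes to a common level in every library, so this could not show a change in total RNA. The other gene lists were read under 1 setting only. Depth was lowest in GFP-negative control library 1 and the GFP-positive SIX2 libraries.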
